A study of Homo sapiens with 6 samples.

Results

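Topologically associating domains (TADs) are stretches of a chromosome whose parts contact each other more than they contact their surroundings. Merged TADs were control TADs that lay inside a larger TAD of the cells treated with CTCF siRNA together with at least 1 other control TAD, with a tolerance of 40 kb at each outer edge. Of 2763 autosomal control TADs, 864 (31.3%, 95% Wilson interval 29.6 to 33.0%) met this rule, and they lay in 381 (16.5%) of 2308 autosomal CTCF siRNA TADs, called holders here. Control TADs in the same holder are called partners. The rule compared TAD lists that the authors called from contacts of the same libraries, so contacts between partners are given below as a description, without a test.

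The data were Hi-C contact maps, which count how often any pair of places in the genome is ligated together after cross-linking, as a measure of their closeness in the nucleus. The cells were LNCaP, an established line from prostate cancer. They received either a non-targeting siRNA pool (control siRNA, 2 libraries) or an siRNA pool against CTCF (CTCF siRNA, 4 libraries), each at 20 nM. The labels number the CTCF siRNA libraries as replicates 1 and 2 and a further version of each, without saying what separates the versions, so the 4 libraries may come from 2 replicates. All cells were collected 144 h after a first transfection, with a further transfection midway, and DNA was cut with BglII. The libraries of a condition were pooled by the authors into 1 map of 40 kb bins, so every difference below is between 1 map and 1 map, without a replicate check, and intervals hold only the error of counting or the spread among positions.

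CTCF is a zinc finger protein that binds a long DNA motif and halts the cohesin ring as it extrudes chromatin loops. Edges of TADs are known for bound CTCF and cohesin, and loss of an edge lets regions on both sides contact each other more freely. Sites pointing towards each other across a TAD are the arrangement at which cohesin loops are commonly anchored. Contacts across an edge are read against those inside the flanking TADs, since both share the bias of coverage of their locus.

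Several inner edges of holders, where neighbouring partners faced each other with or without a gap, carried a match to the CTCF core motif. The following sites were the matches nearest to the downstream end of the upstream partner at pairs named below. Their closeness to that edge is part of the choice. At the FOSL2, AFF3 and TPCN2 sites, gaps of 160, 320 and 40 kb lay between the partners. Matches at 4 further places, 34.6 to 178.3 kb downstream of that end and in part within gaps, are not printed. Distances to the facing edge of the downstream partner were not measured. The unprinted matches at chr4:154671547-154671576 and chr11:48194567-48194596 lie near such an edge. Each is given 5′ to 3′ along the strand of the motif, read from GRCh37 (the same build as hg19, which the TAD lists use), with the 14 motif letters in capitals and 8 flanking letters on each side.
Downstream edge of the FOSL2 TAD (chr2:28636560-28636589, minus strand, in the FOSL2 gene): cacttgatCCAGCAGGTGGCAGatgaccac
Downstream edge of the AFF3 TAD (chr2:100879492-100879521, plus strand, in no protein-coding gene): gaggatgtCCAGCAGGTGGCGCaaaagaca
Downstream edge of the SLC45A3 TAD (chr1:205680420-205680449, minus strand, in no protein-coding gene): acagtctgCCAGTAGAGGGCAGtgtttgtc
Upstream edge of the STAG1 TAD (chr3:135761642-135761671, minus strand, in the PPP2R3A gene): aggagtttCCACTAGAGGGCACtcaaacca
Upstream edge of the HERC3 TAD (chr4:89436970-89436999, minus strand, in no protein-coding gene): cgcatttgCCACTAGATGGCACttttggtt
Upstream edge of the ETV1 TAD (chr7:13316808-13316837, plus strand, in no protein-coding gene): gtctgcagCCACCAGGTGGCAGaatcactt
Downstream edge of the TPCN2 TAD, the partner of the CCND1 TAD (chr11:68856328-68856357, minus strand, in the TPCN2 gene): ccatcccaCCACTAGATGGCACccaaacct

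The sites lay -3.4 kb, -0.5 kb, 0.4 kb, 1.7 kb, -3 kb, -3.2 kb and 16.3 kb from their edges in the order given, where a negative value is upstream. The edge was taken 20 kb after the deposited position, because contacts across were fewest there and rose by about as much on both sides. Over 1697 shared edges of adjacent control TADs, observed over expected contacts between the 200 kb on each side were 0.558 at that position in control siRNA, 0.725 at 40 kb upstream and 0.725 at 40 kb downstream. In CTCF siRNA the same positions had 0.824, 0.941 and 0.937.

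The motif stood at inner edges of holders more often than inside merged TADs. An 80 kb window around the inner edge held at least 1 match on either strand at 87 of 327 edges (26.6%, 22.1 to 31.6%) where partners met without a gap. The middle 80 kb of merged TADs of at least 400 kb held one in 57 of 678 (8.41%, 6.55 to 10.7%), and 13.2% of 33547 windows of the same length over the autosomes did. Matches were 5.66 per 10 kb per 100 inner edges within 10 kb of the edge and 1.99 at 60 to 100 kb from it, beside 1.94 over all autosomes. These counts use only the genome sequence and the TAD positions, and a match is not evidence of bound CTCF.

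Edges kept after CTCF siRNA carried the motif more often. A kept edge was a place where adjacent control TADs that were not partners both had a CTCF siRNA edge within 40 kb. Of 956 such edges without a gap, 334 (34.9%, 32.0 to 38.01%) had a match within the 80 kb window. Kept edges were also richer in GC, with a median of 42.2% against 40.1% at inner edges of holders. Within windows of 38 to 42% GC the shares were 26.0% (18.5 to 35.1%, n = 104) at inner edges and 30.4% (25.5 to 35.7%, n = 313) at kept edges, and their intervals overlapped. Within 10 kb of the edge, kept edges had 5.86 matches per 10 kb per 100 edges, close to the value at inner edges. Of 18 matches up to 10 kb upstream of an inner edge, 12 were on the plus strand (66.7%, 43.7 to 83.7%), and of 19 downstream, 9 were (47.4%, 27.3 to 68.3%), so no orientation could be read at these numbers.

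**Figure D1:**
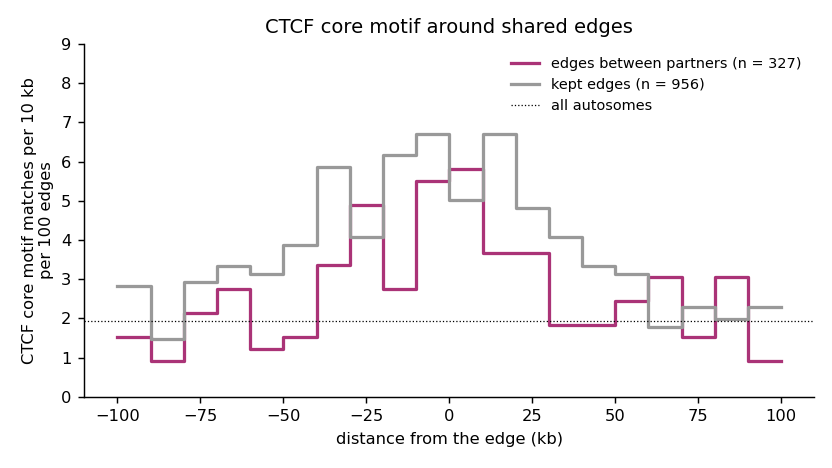
CTCF core motif matches per 10 kb per 100 edges (y axis) against distance from the edge (x axis, kb), for 327 edges between partners and 956 kept edges, with the level over all autosomes dotted at 1.94. Both lines peak near the edge, at 5.81 for edges between partners in the 10 kb downstream.

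Merged TADs were smaller than other control TADs. Their median size was 640 kb (600 to 680 kb), against 760 kb (760 to 800 kb) for the 1899 control TADs that were not merged. Among the latter, the 569 that kept both edges within 40 kb had a median of 680 kb (640 to 720 kb). That interval overlapped the one of merged TADs, so small size was not particular to merged TADs. Merged TADs ranged from 160 to 3680 kb with quartiles at 400 and 1000 kb. The share of control TADs that were merged fell with size, from 43.6% (39.4 to 47.9%, n = 521) at up to 400 kb to 32.2% (29.5 to 35.1%, n = 1046) above that and up to 800 kb, 26.5% (23.6 to 29.6%, n = 823) above that and below 1.5 Mb, and 21.98% (18.1 to 26.5%, n = 373) from 1.5 Mb on. The rule itself favours small TADs, since several must lie within 1 holder. Together the merged TADs spanned 676 Mb, 27.1% of the length of all control TADs.

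Most holders joined a pair of control TADs. Of the 381 holders, 304 held 2, 57 held 3, 17 held 4, 1 held 5 and 2 held 6. Holders had a median size of 1720 kb (1600 to 1880 kb), against 720 kb (680 to 760 kb) for the other 1927 CTCF siRNA TADs. The merged TADs covered a median of 94.0% of their holder, from 31.4% to 100%. In 224 holders (58.8%) both outer edges lay within 40 kb of the outer edges of the merged TADs.

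Pairs just inside and just outside the threshold of 40 kb had similar values. In 90 holders a merged TAD reached 40 kb past an edge of the holder, and raising the tolerance to 80 kb added 50 control TADs. Contacts between partners relative to within, described below, changed by a median of 0.56 on the log2 scale both in 327 neighbouring pairs of holders that no merged TAD reached past and in 109 pairs of holders that one reached past by 40 kb, and by 0.59 in 27 pairs just outside the threshold.

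Partners and other neighbours were similarly unequal in size. Over 483 neighbouring pairs of partners, the larger TAD was a median of 1.75 times (1.65 to 1.83) the size of the smaller one, with quartiles at 1.33 and 2.51. Over 2182 other neighbouring control TADs at most 400 kb apart the median was 1.78 (1.73 to 1.83). A ratio of at least 3 was found in 19.9% (16.6 to 23.7%) of partner pairs and in 19.6% (18.0 to 21.3%) of the others. The smaller partner had a median of 480 kb and the larger 920 kb, and 16 pairs were of equal size. The smaller partner lay upstream in 226 pairs. Partners were adjacent without a gap in 327 pairs (67.7%), 57 had a gap of 40 kb, 88 a larger gap of up to 400 kb, and 11 lay further apart, by up to 2520 kb.

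**Figure D2:**
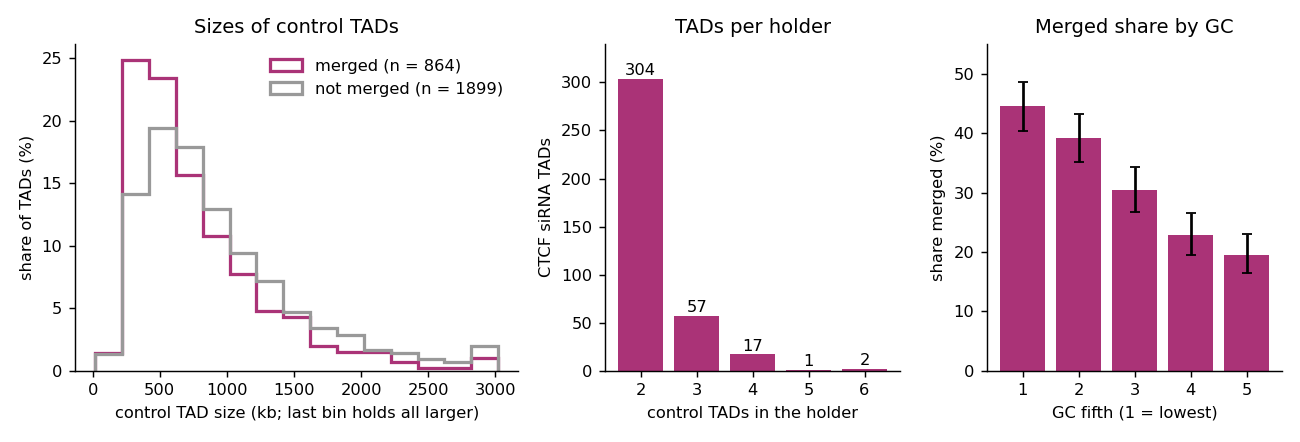
Left, sizes of 864 merged and 1899 other control TADs in bins of 200 kb (y axis, share of TADs in %); middle, number of holders by the number of control TADs they held, from 304 holders of 2 to 2 holders of 6; right, share of control TADs merged by quintile of GC content, with 95% Wilson intervals. Merged TADs lie to the left of the others, and the merged share falls from 44.5% to 19.5% with GC content.

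Merged TADs were poor in GC and in genes, measures the rule did not use. Median GC content was 39.7% (39.3 to 39.9%) in merged TADs, 41.8% (41.5 to 42.2%) in the others, and 42.7% (42.2 to 43.1%) in the 569 control TADs that kept both edges. The share merged fell from 44.5% (40.4 to 48.7%) in the quintile lowest in GC to 19.5% (16.4 to 23.04%) in the highest. Merged TADs held a median of 4.12 (3.57 to 4.41) starts of protein-coding genes per Mb, against 6.25 (5.88 to 6.67) in the others. A TAD without any such start was found in 8.80% (7.09 to 10.9%) of merged TADs and 4.37% (3.54 to 5.39%) of the others. Within chromosomes the median GC content was lower in merged TADs on all 22 autosomes, and gene starts per Mb on 19 of 22. These intervals treat TADs as independent. Members in the same holder share their neighbourhood, so the intervals are narrower than they should be.

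The merged share also differed between chromosomes. It was 10.7% (5.00 to 21.5%, 6 of 56 control TADs) on chromosome 19, 20% (12.9 to 29.7%) on chromosome 16 and 21.9% (14.8 to 31.1%) on chromosome 17. It reached 38.7% (31.8 to 46.2%, 67 of 173) on chromosome 4 and 39.5% (31.9 to 47.5%, 58 of 147) on chromosome 12. Chromosome 19 was the richest in GC at 48.4% and chromosome 4 the poorest at 38.2%. Chromosome 22, at 48.0% GC, had a merged share of 33.3% (20.2 to 49.7%), so the order of chromosomes did not follow GC throughout.

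The 2 maps differed in depth and in their dependence on GC, and this touches every contact value below. Autosomal contacts between different bins of a chromosome numbered 10553092 in control siRNA and 42735899 in CTCF siRNA. TADs were called by the authors at these unequal depths, and the parts of depth and of GC in the merging of TADs were not tested. Thinning the CTCF siRNA map to the depth of control siRNA gave a median log2 change between partners relative to within of 0.57, beside the 0.56 given below. Thinning removed the same share of contacts throughout a chromosome and kept the same pairs. A similar median was therefore built in, and it tells nothing of how depth shaped the TAD lists. Contacts within the TADs of partner pairs changed between maps with their GC content (Pearson r = 0.82 and Spearman rho = 0.90 over 436 pairs, which share 2 maps), and after iterative balancing of the counts, which gives every bin the same total, this fell to r = 0.10 and rho = 0.12. Contacts between partners are therefore given as observed over expected, as the same value relative to contacts within the TADs of the pair, and after balancing. Expected counts were the means at the same distance on the same chromosome. Of the 483 neighbouring pairs of partners, 436 had a value. Of the other 47, 26 began within the first 9.4 Mb of a chromosome, where the deposited maps hold no contacts. The TAD lists do cover those stretches, so they were not called from the maps exactly as deposited.

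Contacts between partners were closer to those within TADs after CTCF siRNA. In control siRNA they were a median of 0.828 (0.789 to 0.851) of expected, and within the same TADs contacts were 1.17 (1.15 to 1.21) of expected. In CTCF siRNA the values were 0.943 (0.881 to 0.980) between and 0.904 (0.869 to 0.980) within. The ratio of between to within thus had a median of 0.671 (0.646 to 0.690) in control siRNA and 1.04 (1.01 to 1.06) in CTCF siRNA. It was over 1 in 54 of 436 pairs in control siRNA (12.4%) and in 241 (55.3%) in CTCF siRNA, where 6.73% and 26.8% of all 2393 neighbouring pairs with a value were over 1, and at kept edges 35 of 1106 (3.16%) and 108 (9.76%). The median at partners lay close to this limit of 1 in CTCF siRNA, and just below it in balanced counts, at 0.994 (0.978 to 1.01).

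The change relative to within was larger at partners than at edges of other kinds. At partners the median log2 change was 0.56 (0.51 to 0.62). It was 0.43 (0.39 to 0.46) at 595 outer edges of merged groups, 0.43 (0.41 to 0.45) at 1898 neighbouring pairs with a TAD that was not merged, and 0.38 (0.35 to 0.41) at 1106 kept edges. These other classes overlap, since an outer edge or a pair not merged can also be a kept edge. At kept edges the ratio of between to within rose from 0.532 (0.519 to 0.545) to 0.710 (0.690 to 0.724), so it rose there as well but stayed below 1. In balanced counts the changes were 0.51 (0.47 to 0.54) at partners, 0.33 (0.29 to 0.35) at outer edges and 0.29 (0.26 to 0.31) at kept edges. Partners already differed in control siRNA, where their ratio of 0.671 stood above the 0.532 of kept edges.

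A rise of at least 1.25-fold in contacts between relative to within was found in 334 of 436 partner pairs (76.6%, 72.4 to 80.3%), where 63.1% of all 2393 neighbouring pairs with a value had such a rise. A fall of that size was found in 5 partner pairs (1.15%), beside 3.01% of all pairs. The TAD lists that chose the partners were called from contacts of the same libraries, so the excess over all pairs is part of the choice.

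**Figure D3:**
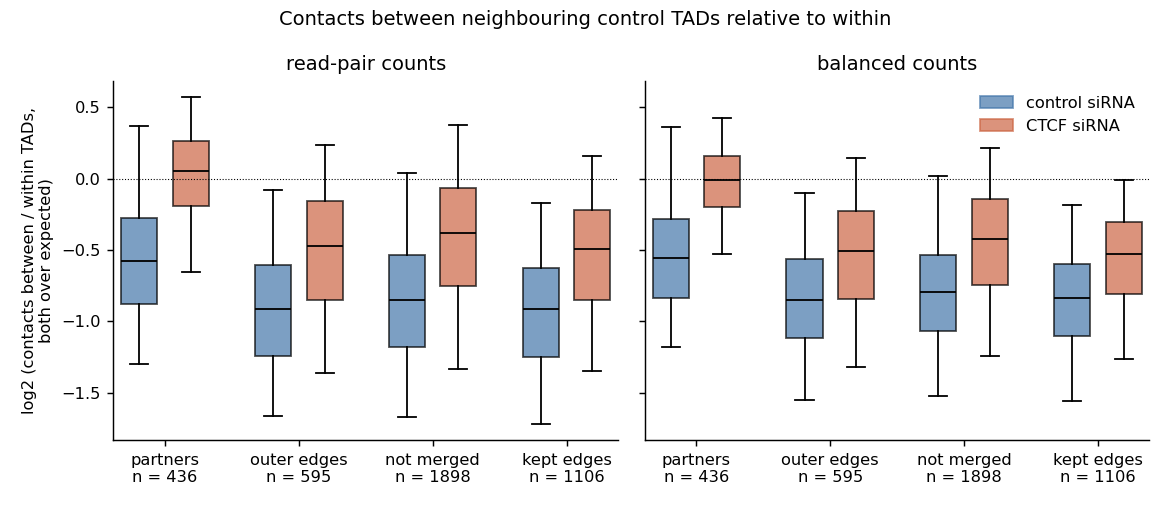
Contacts between neighbouring control TADs over contacts within them, both over expected, on a log2 scale (y axis), in control siRNA and CTCF siRNA, for 436 partner pairs, 595 outer edges, 1898 pairs not merged and 1106 kept edges, from read-pair counts (left) and balanced counts (right). Boxes span the quartiles with the median, whiskers the 5th to the 95th percentile; in CTCF siRNA the median of partners lies at the level within TADs (0 on this axis; ratios of 1.04 and 0.994), and the medians of the other classes lie below it.

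Without reference to within, the order of the classes depended on balancing. Contacts between partners over expected rose by a median log2 of 0.23 (0.16 to 0.32), less than the 0.37 (0.32 to 0.41) at kept edges. In balanced counts partners rose by 0.37 (0.34 to 0.40), from 0.789 to 1.04 of expected, more than the 0.21 (0.18 to 0.23) at kept edges, which went from 0.662 to 0.771. A rise of at least 1.25-fold in the unbalanced value was found in 197 partner pairs (45.2%) against 50.5% of all neighbouring pairs, and a fall of that size in 79 (18.1%) against 14.4%. Partner pairs in the tercile lowest in GC changed by -0.24 (-0.36 to -0.12), and those in the highest tercile by 0.74 (0.61 to 0.81). In balanced counts both terciles rose, by 0.33 (0.27 to 0.43) and 0.38 (0.31 to 0.41), and their intervals overlapped. Relative to within, the same terciles changed by 0.57 (0.49 to 0.70) and 0.52 (0.48 to 0.59). Among pairs of 37 to 41% GC the change relative to within was 0.60 (0.50 to 0.65) at 201 partner pairs and 0.46 (0.41 to 0.48) at 411 kept edges. It was 0.51 (0.47 to 0.55) at 691 pairs not merged and 0.46 (0.41 to 0.53) at 273 outer edges. The intervals of these last classes overlapped the one of partners.

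Maps summed around edges gave the same order. Across 295 inner edges of adjacent partners with contacts within 480 kb, observed over expected contacts across the edge were 0.712 in control siRNA and 0.966 in CTCF siRNA, while those on the upstream side went from 1.14 to 1.05 and on the downstream side from 1.14 to 1.04. The ratio of across to the mean of the sides was 0.623 and then 0.923. At 859 kept edges it was 0.497 and then 0.641. Contacts across kept edges rose by as much or more, from 0.588 to 0.834. Those on the upstream side rose as well, from 1.18 to 1.28, and on the downstream side from 1.19 to 1.32. These sums were taken without balancing. In balanced counts the median of contacts within the TADs at kept edges fell from 1.17 to 1.11 of expected. Without balancing the median log2 change within these TADs was 0.01 (-0.03 to 0.05). Between the bins next to the edge, contacts at inner edges were 0.639 of expected in control siRNA and 0.790 in CTCF siRNA, so a shortfall remained beside the former edge.

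**Figure D4:**
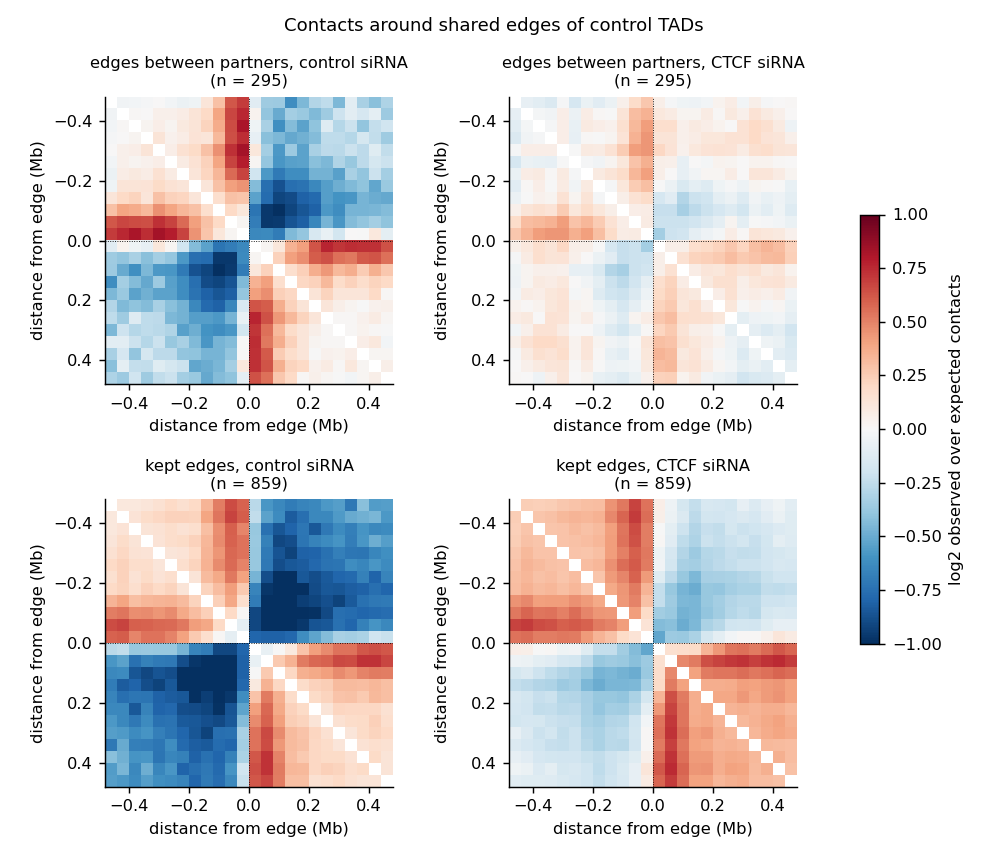
Summed observed over expected contacts (colour, log2) within 0.48 Mb of shared edges of adjacent control TADs (both axes, distance from the edge in Mb), for 295 edges between partners (top) and 859 kept edges (bottom), in control siRNA (left) and CTCF siRNA (right). All panels use read-pair counts without balancing. The blue corner of depleted contacts across the edge pales in both rows, from 0.712 to 0.966 of expected between partners and from 0.588 to 0.834 at kept edges, while the sides pale between partners and redden at kept edges.

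Contacts both between partners and across kept edges rose most at 120 to 200 kb and fell at long distance. Summed over partner pairs, contacts at 40 to 80 kb went from 0.640 (exact Poisson interval 0.628 to 0.652) to 0.831 (0.824 to 0.837) of expected. At 120 to 200 kb they went from 0.603 to 0.884, a 1.47-fold rise that was as large at kept edges, from 0.520 to 0.763. In balanced counts these rises were 1.52-fold between partners and 1.28-fold at kept edges. Contacts between partners went at 240 to 400 kb from 0.685 to 0.955, and at 440 to 800 kb from 0.848 to 1.05. At 0.84 to 2 Mb they were 1.23 and 1.15. Beyond 2 Mb, where 104 partner pairs contributed, they went from 1.94 (1.90 to 1.97) to 1.19 (1.18 to 1.21). In balanced counts the band from 0.84 to 2 Mb rose instead, from 1.1996 to 1.31, and the fall beyond 2 Mb was from 1.92 to 1.62. Kept edges fell beyond 2 Mb as well, from 1.40 to 1.15, and in balanced counts from 1.38 to 1.21. Partners thus had more contacts than kept edges at long distance in both maps.

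**Figure D5:**
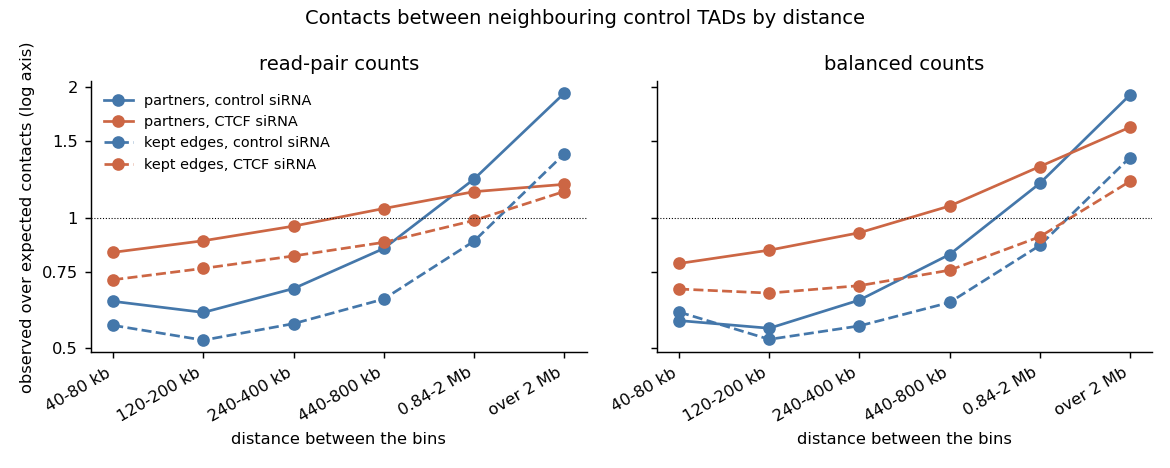
Observed over expected contacts (y axis, log scale) by the distance between bins (x axis), summed over partner pairs (solid) and kept edges (dashed), in control siRNA and CTCF siRNA, from read-pair counts (left) and balanced counts (right). Partners rise from 0.603 to 0.884 at 120 to 200 kb and fall from 1.94 to 1.19 beyond 2 Mb in read-pair counts.

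By size, number and spacing of partners, the change relative to within moved little. It was 0.53 (0.45 to 0.60) in the tercile of pairs most alike in size, with a ratio of up to 1.45, and 0.63 (0.51 to 0.67) in the tercile least alike, with a ratio above 2.14. It was 0.55 (0.50 to 0.61, n = 273) in holders of 2, 0.62 (0.51 to 0.69, n = 101) in holders of 3 and 0.54 (0.43 to 0.74, n = 62) in larger holders. It was 0.55 (0.50 to 0.60, n = 290) for adjacent partners, 0.65 (0.50 to 0.79, n = 75) at gaps of 40 to 80 kb and 0.51 (0.38 to 0.68, n = 71) at larger ones. All these intervals overlapped. Pairs of partners in the same holder that were not neighbours, 122 with a value, went from a between to within ratio of 0.913 (0.777 to 0.984) to 1.39 (1.30 to 1.49). Their contacts between were 1.03 of expected in both maps, with a log2 change of -0.02 (-0.15 to 0.14), while contacts within went from 1.16 to 0.749. In balanced counts contacts between rose by 0.25 (0.17 to 0.34).

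Intervals for inner edges with and without the core motif overlapped. The change relative to within was 0.51 (0.42 to 0.60) at 80 inner edges with a match and 0.57 (0.50 to 0.63) at 210 without one. In balanced counts the values were 0.49 (0.39 to 0.57) and 0.53 (0.47 to 0.58). Inner edges had a gene start within 40 kb at 160 of 327 (48.9%, 43.6 to 54.3%), less often than kept edges at 662 of 956 (69.2%, 66.2 to 72.1%). Inner edges were also poorer in GC (median 40.1 against 42.2%), and merged TADs were poor in genes. Whether this contrast holds at like GC or gene density was not tested. A protein-coding gene ran across 185 inner edges (56.6%, 51.2 to 61.8%) and 584 kept edges (61.1%, 58.0 to 64.1%).

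The partner pairs with the largest rise lay in parts of the genome of 40.5 to 46.0% GC. They were chosen by the change of contacts between partners over expected, among pairs with at least 50 contacts expected in control siRNA. Over 436 pairs this change followed GC content (Spearman rho = 0.74, and 0.07 in balanced counts). The GC of the named pairs is thus in part given by the choice. On chromosome 5 a TAD of 920 kb with FGF18, a fibroblast growth factor, and STK10 joined a TAD of 240 kb with NEURL1B in a holder at chr5:170820001-172140000. There, 464 contacts were counted between partners in control siRNA where 419 were expected, and 6016 in CTCF siRNA where 1616 were expected, a 3.36-fold rise of observed over expected (conditional binomial interval 3.06 to 3.70). Relative to within, this pair went from 0.603 to 1.34. On chromosome 2 a TAD of 720 kb that starts FOSL2, a member of the AP-1 transcription factors, joined a TAD of 240 kb with PPP1CB, a catalytic subunit of protein phosphatase 1, at chr2:27860001-29100000. Contacts rose 3.35-fold (2.71 to 4.18), from 93 counted of 246 expected to 1269 of 1003, and from 0.303 to 0.960 relative to within. The FOSL2 site printed above lay 3.4 kb upstream of the downstream edge of the FOSL2 TAD. In balanced counts the rises were 1.93-fold and 2.09-fold.

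The next pairs were on chromosomes 4, 2 and 6. TRIM2, a ubiquitin ligase, and SFRP2, a secreted antagonist of Wnt signalling, lay in partners whose contacts rose 3.14-fold (2.75 to 3.61) in a holder of 4 at chr4:152020001-155460000. The TAD of AFF3 and that of NPAS2, a circadian transcription factor, gained 2.99-fold (2.49 to 3.63) at chr2:99980001-101620000. The TADs of EZR, which links the plasma membrane to actin, and FNDC1 gained 2.93-fold (2.49 to 3.48) at chr6:158620001-160060000, without a gap between them and with no core motif match in the window at their edge. In balanced counts the rises were 2.04-fold, 1.73-fold and 1.86-fold.

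The largest falls of contacts between partners lay in regions of 34.7 to 35.6% GC with 0 to 4 gene starts a pair. Gaps of 400 to 1200 kb lay between the partners. These pairs were chosen by the same change, so their low GC is also in part given by the choice. The pair with LUZP2 and ANO3 at chr11:22820001-26300000 went from 2.27 (2.16 to 2.38) to 0.747 (0.718 to 0.776) of expected. The other 2 lay at chr1:186300001-192100000, where neither partner held a protein-coding gene start, and at chr13:82860001-91980000, where SLITRK5 was the only one. They went from 1.63 to 0.590 and from 2.01 to 0.796. In balanced counts the falls were 0.650-fold, 0.823-fold and 0.685-fold. Relative to within, the 3 pairs kept a ratio above 1 in both maps, and changed by -0.39, -0.03 and -0.43.

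The merged example that the study itself drew attention to on these maps, and so no independent case, lay at chr1:64700001-66140000. A TAD of 800 kb with CACHD1 and RAVER2 joined one of 640 kb that starts JAK1, a kinase of cytokine receptor signalling, and LEPR, the leptin receptor, and the JAK1 gene ran across the edge. Contacts between them were 665 of 985 expected in control siRNA and 4952 of 4594 in CTCF siRNA, a 1.60-fold rise (1.47 to 1.73) and 1.60-fold after balancing. Relative to within, they went from 0.672 to 1.26. No exact core motif match was found in the 80 kb at this edge, which is not evidence that CTCF was unbound there.

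The most equal partners, with the most expected contacts among ties, were TADs of 1160 kb each on chromosome 14 at chr14:79380001-81620000, the downstream one with TSHR, the thyrotropin receptor, and DIO2, a deiodinase of thyroid hormone. Their contacts were 1.73 (1.66 to 1.81) of expected in control siRNA and 1.01 (0.985 to 1.04) in CTCF siRNA, and 1.44 and 1.41 relative to within. This 0.583-fold fall was 0.935-fold in balanced counts. The most unequal lay at chr1:118460001-121340000, with a TAD of 2240 kb that starts NOTCH2 and PHGDH and one of 240 kb without a gene start. Only 35 contacts were counted between these in control siRNA, and observed over expected was 0.250 (0.174 to 0.348) and then 0.161 (0.132 to 0.195), a fold of 0.644 (0.436 to 0.973) and of 0.955 in balanced counts.

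Both holders of 6 control TADs lay in regions of low GC. The holder at chr6:126300001-131180000 spanned 4.88 Mb and 17 gene starts, among them PTPRK, a receptor phosphatase, and LAMA2, a laminin chain of muscle. Its merged TADs measured 280 to 1240 kb. All 5 neighbouring pairs rose relative to within, by 0.59 to 1.07, and between partners the ratios of 0.506 to 0.851 in control siRNA became 0.907 to 1.32. Without reference to within, the changes ran from -0.41 to 0.22, and in balanced counts from 0.31 to 0.66. The holder at chr13:59500001-73300000 spanned 13.8 Mb, the largest of all, with 11 gene starts, among them PCDH9, a protocadherin, and DACH1. Of its 5 neighbouring pairs 4 rose relative to within, by 0.48 to 1.07, and the pair upstream of the PCDH9 TAD changed by -0.17, from 1.77 to 1.58. Without reference to within, contacts between partners fell in 3 of these 5 pairs, by 0.37 to 1.22 on the log2 scale, and changed by 0.03 and 0.13 in the others. In balanced counts 4 of the 5 rose, by 0.27 to 0.94, and the pair upstream of the PCDH9 TAD changed by -0.30.

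Of 19229 autosomal protein-coding genes, 16.8% started in a merged TAD. Androgen receptor targets, which carry the hormone response of this cell line, did so in 5 of 20 and prostate cancer genes in 5 of 22. Genes of chromosome architecture did so in 3 of 22. Of the gene families, none of 39 HOX genes, 53 clustered protocadherins, 50 keratins or 15 kallikreins started in a merged TAD, and 1 of 72 histone genes did. Olfactory receptors did in 86 of 398 (21.6%), which lay in only 11 holders, zinc finger genes in 53 of 466 (11.4%), ribosomal protein genes in 8 of 76 (10.5%) and cadherins in 3 of 23, namely CDH1, CDH3 and CDH12. Genes of a cluster share a TAD and are not independent, and the lists are small, so none of these shares is set against the background as a result.

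Among the androgen receptor targets, SLC45A3, a prostate solute carrier, lay with ELK4 in a TAD of 400 kb in the holder at chr1:205100001-205900000. Contacts with the TAD of NUCKS1 rose 1.76-fold (1.55 to 2.01), or 1.18-fold in balanced counts. HERC3, a HECT domain protein, lay at chr4:88140001-90020000 and contacts with the partner TAD of ABCG2, a drug efflux pump, rose 1.54-fold (1.38 to 1.73), or 1.25-fold in balanced counts. STEAP4, a metalloreductase, at chr7:86780001-89740000 had a fold of 0.967 (0.895 to 1.05) with the TAD of ABCB1, but 1.66 in balanced counts, and went from 0.595 to 1.19 relative to within. FOLH1, the prostate-specific membrane antigen, lay in a TAD of 2600 kb in the holder at chr11:47740001-50740000. Contacts with the PTPRJ TAD rose 1.65-fold (1.42 to 1.92), or 1.40-fold in balanced counts. This pair was sparse in contacts. Within its TADs they were 0.349 of expected in control siRNA, the lowest of the 436 partner pairs, and 0.302 in CTCF siRNA.

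Among the prostate cancer genes, CCND1, the cyclin D1 gene, lay in a TAD of 600 kb in the holder at chr11:68180001-69500000. The partner of that TAD, of 480 kb, holds CPT1A and TPCN2. Contacts between them were 529 of 581 expected in control siRNA and 6221 of 2757 in CTCF siRNA, a 2.48-fold rise (2.27 to 2.72), or 1.57-fold in balanced counts. TP63, a p53 relative of basal cells, lay in a TAD of 720 kb in the holder at chr3:187420001-189660000. Contacts with the TAD of BCL6 and LPP rose 1.64-fold (1.51 to 1.78), 1.84-fold in balanced counts, and from 0.514 to 0.991 relative to within. SOX9, a transcription factor of prostate and cartilage development, lay at chr17:68580001-70540000, where contacts between partners were 1.85 of expected in control siRNA and 1.51 in CTCF siRNA, a fold of 0.814 (0.769 to 0.863) and 0.847 after balancing. Relative to within, they went from 1.51 to 1.73, a log2 change of 0.20, which was -0.14 in balanced counts. ETV1, an ETS factor rearranged in prostate cancer, lay at chr7:12500001-14180000, where the maps gave no value.

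Among the genes of chromosome architecture, STAG1 and RAD21, both cohesin subunits, and PDS5B, a cohesin regulator, started in merged TADs. At STAG1 (chr3:134220001-136700000) contacts with the partner TAD of EPHB1 rose 1.7997-fold (1.67 to 1.94), or 1.53-fold in balanced counts. At RAD21 (chr8:115260001-118300000) the fold was 0.865 (0.791 to 0.947), or 1.05 in balanced counts, with a partner of 280 kb that held no gene start. PDS5B lay first in a holder of 4 TADs at chr13:33060001-37620000, where contacts of the 3 neighbouring pairs rose 1.18-fold to 1.22-fold, or 1.11-fold to 1.496-fold in balanced counts. The folds named here compare 1 map with 1 map, and expression of these genes was not analysed here.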

How the data were processed

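Hi-C was read from LNCaP cells with control siRNA (2 libraries) or CTCF siRNA (4 libraries), grouped by the siRNA in the labels. Per the methods and the submitters' processing notes, HiCUP with Bowtie 1.1.0 was used by the authors for mapping to hg19, duplicates were tagged with Picard 1.121, and the libraries of a condition were pooled into 1 matrix of 40 kb bins. Their TAD calls rest on a hidden Markov model of the directionality index. The deposited contact values were read-pair counts multiplied by a factor per bin between positions 9400001 and 48120000. The factors of a map were the same on every chromosome, whatever its sequence, and ran from 0.150 to 51.7 in control siRNA and from 0.0926 to 2.49 in CTCF siRNA. Counts were recovered by division. They were checked to a tolerance of 0.0101 plus 0.05% of the value, in entries whose factor was not 1 and was large against that tolerance. Of these, 99.998% were whole in control siRNA and 99.999% in CTCF siRNA. The factors were fitted to the same values, so these shares are in part built in.

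TAD edges were taken 20 kb after the deposited positions. Bins with at least 10% of the median coverage of their chromosome in both maps were used, the diagonal was left out, at least 50% of bin pairs had to be usable, and at least 10 contacts had to be expected in control siRNA. Medians carry 95% binomial order-statistic intervals. Scripts ran in Python 3.11.15 with numpy 2.4.6 and scipy 1.17.1, and membership and ratios were tested on simulated maps. Genes came from GENCODE 44 on GRCh37, assigned by their start. The CTCF core consensus of 14 letters was searched on both strands and had 5209 autosomal matches. Regions were named by rule: the holders of most TADs, the 5 pairs with the largest and 3 with the smallest fold, the most equal and unequal pairs, the example at JAK1 and holders of listed genes, of which 1 is not reported here. The members, lists and rules were chosen with earlier results of these data known. Alternatives changed the tolerance, holder size, chromosomes, expected counts, balancing, depth and distances. With 1 map per condition no p-value was computed.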

Additional observations from a re-analysis of the deposited data

How the results depend on the processing

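The numbers of merged TADs and holders stayed within 1.5 times under every tolerance and filter tried (706 and 313 at 0 kb, 914 and 403 at 80 kb). Of 193 values under 14 alternatives, 165 moved by less than the interval of the reported one, or within 1.5 times for counts. Some of the 165 had no room to move. Asking for at least 50 expected contacts removed no pair, and thinning left the control map as it was. Values at kept edges were identical under every tolerance and holder size. The difference in unreferenced log2 change between partners and kept edges, -0.13, turned to 0.16 in balanced counts and to 0.039 with holders of at most 3 Mb, and was -0.016 at 37 to 41% GC. The difference relative to within, 0.18, was positive throughout (0.14 to 0.22).

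With holders of at most 3 Mb, merged TADs had a median of 560 kb, 40.5% GC and 5 gene starts per Mb, contacts between partners in CTCF siRNA were 1.03 of expected and their log2 change was 0.40. Balanced counts gave 0.789 and 1.04 of expected between partners, a log2 change of 0.37 and one of 0.51 relative to within. Changes in balanced counts were 0.33 relative to within at outer edges, 0.25 and 0.34 relative to within at pairs not merged, and 0.21 and 0.29 at kept edges. Without contacts at up to 2 bins, changes relative to within were 0.66 at partners, 0.49 at outer edges, 0.49 at pairs not merged and 0.44 at kept edges. At 37 to 41% GC, a restriction chosen after the data were seen, the log2 change was 0.12 at partners, 0.059 at outer edges, 0.19 at pairs not merged and 0.13 at kept edges, and relative to within 0.46, 0.51 and 0.46 at the last 3. The causes were not tested.

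TAD edges as deposited, without the 20 kb, and partners at most 400 kb apart, both also chosen after the data were seen, changed none of these values by more than its interval. No paired analysis was possible because each condition was deposited as 1 pooled map, and for the same reason no library was left out. The control map limits single pairs, since 35 contacts were counted in the smallest named one.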
